A study of Schmidtea mediterranea with 32 samples.

Results

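The sexual-assembly contigs described here are the 109 that were higher in control planarians after 8 feedings than after 4. They were taken from 93783 contigs with the prefix SmedSXL, out of 177783 reference sequences in the count table. A contig was kept when its mean in the controls at 8 feedings was at least 5 CPM, when that mean was at least 3 times the mean at 4 feedings with 0.1 CPM added to both, and when every control library at 8 feedings lay above every control library at 4. CPM is a count scaled to a library total of 1000000, where the total is that of the SmedSXL contigs without the most abundant one, SmedSXL_088910. The level alone was met by 14721 contigs, and level and ratio together by 237. The members were thus chosen by the levels of the control libraries at 4 and 8 feedings and by no others, so values there are given as a description and without a test.

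Planarians are flatworms that regenerate from pluripotent stem cells, and Schmidtea mediterranea has a sexual biotype, a hermaphrodite that carries testes, ovaries, yolk glands and copulatory organs. Nuclear hormone receptors are transcription factors whose activity is often set by a small lipophilic ligand. The receptor nhr-1 is known in this species as a gene needed for the reproductive system to develop and to be maintained. The size of a planarian follows its feeding, and sexual animals form their reproductive organs once they have grown large enough. The table pairs no contig with a gene name, and the roles of single contigs are therefore not given.

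Polyadenylated RNA of whole animals of the biotype labelled Sexual S2F2 was sequenced after RNAi against nhr-1 or after control RNAi labelled UNC, and the design asks how the knock-down differed from its matched control as feeding went on. The nhr-1 RNAi groups were sampled after 4, 6, 8 and 11 feedings with 4 libraries each, and the control groups at the same feedings with 4 libraries each except 3 at 6 feedings. Another control, labelled 7 feedings, entered no comparison. The titles of the control libraries at 11 feedings conflict with their descriptions in the replicate name, and the titles were used. Each group holds a library named 1, and the remaining names start with s. In RNA of whole animals, fewer cells of a type and less RNA per cell cannot be told apart. No contig could be matched to nhr-1 or to a tissue marker, so neither the knock-down nor the tissue label was checked.

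The libraries held 11.2 to 19.7 M counts in all, where M is mega, and the median library held 14.5 M. The SmedSXL counts that form the CPM scale ran between 3.09 and 7.71 M. SmedSXL_088910 took 6.77% to 47.5% of the SmedSXL counts, with a median of 13.8%. Its share was highest in 3 libraries, replicate s2 of nhr-1 RNAi at 4 feedings (36.9%) and replicates s2 (45.6%) and s3 (47.5%) of the control at 11 feedings.

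The members spanned wide ranges of abundance and length, and a minority had a match by counts in the asexual assembly. Their mean in the control at 8 feedings lay between 5.04 and 11875 CPM with a median of 11.3 CPM. It was under 10 CPM for 51 members, between 10 and 100 CPM for 49 and at least 100 CPM for 9. The ratio of the control means at 8 and 4 feedings had a median of 3.93 and reached 17.0, was under 4 for 56 members and was at least 6 for 19. Lengths ran between 203 and 11188 bases, with 17 members under 500 bases. The median length was 2010 bases, against 1422 bases for the other 14612 SmedSXL contigs of that level, and 55 members (50.5%), against 28.6% of those contigs, were longer than 2000 bases. A counterpart in the asexual assembly, with a total count within 5% and log2 counts correlated at r over 0.99, was found for 22 members (20.2%), and for 9918 of the other contigs (67.9%). The match rests on counts, and no sequences were compared. These contrasts of length and matching are descriptions, since neither was set against a test.

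Few members had counts close to those of another member. By the same criterion SmedSXL_005402 paired with SmedSXL_005403, and SmedSXL_016265 with SmedSXL_016266. For 7 members the identifier number directly followed that of another member. Reads shared between contigs of the 2 assemblies cannot be separated in these counts, and the members are counted as contigs and not as genes.

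The contigs on either side of the threshold of 3 lay close to it. Just inside it lay SmedSXL_083446, with a ratio of 3.02 and means of 191.8 CPM at 8 feedings and 63.4 CPM at 4, and SmedSXL_016558, also at 3.02, with 9.23 and 2.99 CPM. Just outside lay SmedSXL_016591, with a ratio of 2.99 and means of 50.1 and 16.7 CPM, and SmedSXL_017564, at 2.98, with 11.0 and 3.63 CPM. The members with the highest ratios were SmedSXL_087498 at 17.0 and SmedSXL_087497 at 11.9.

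A small block of members was lower under nhr-1 RNAi than in the control at the later feedings, and a large block was not called lower. In the tests described below, 7 members were lower under nhr-1 RNAi than in the control at 6 or 11 feedings, 6 of them at both, and the remaining 102 were not. Of all sequences 9.54% were called lower by edgeR at 6 feedings and 21.8% at 11, which are larger shares than those of the members. The 7 held 1.96% of the members' summed CPM in nhr-1 RNAi at 8 feedings, against 80.7% in the control at 8 feedings, where SmedSXL_012802 alone held 77.0%. The division was made after the values were seen and is used as a description.

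**Figure D1:**
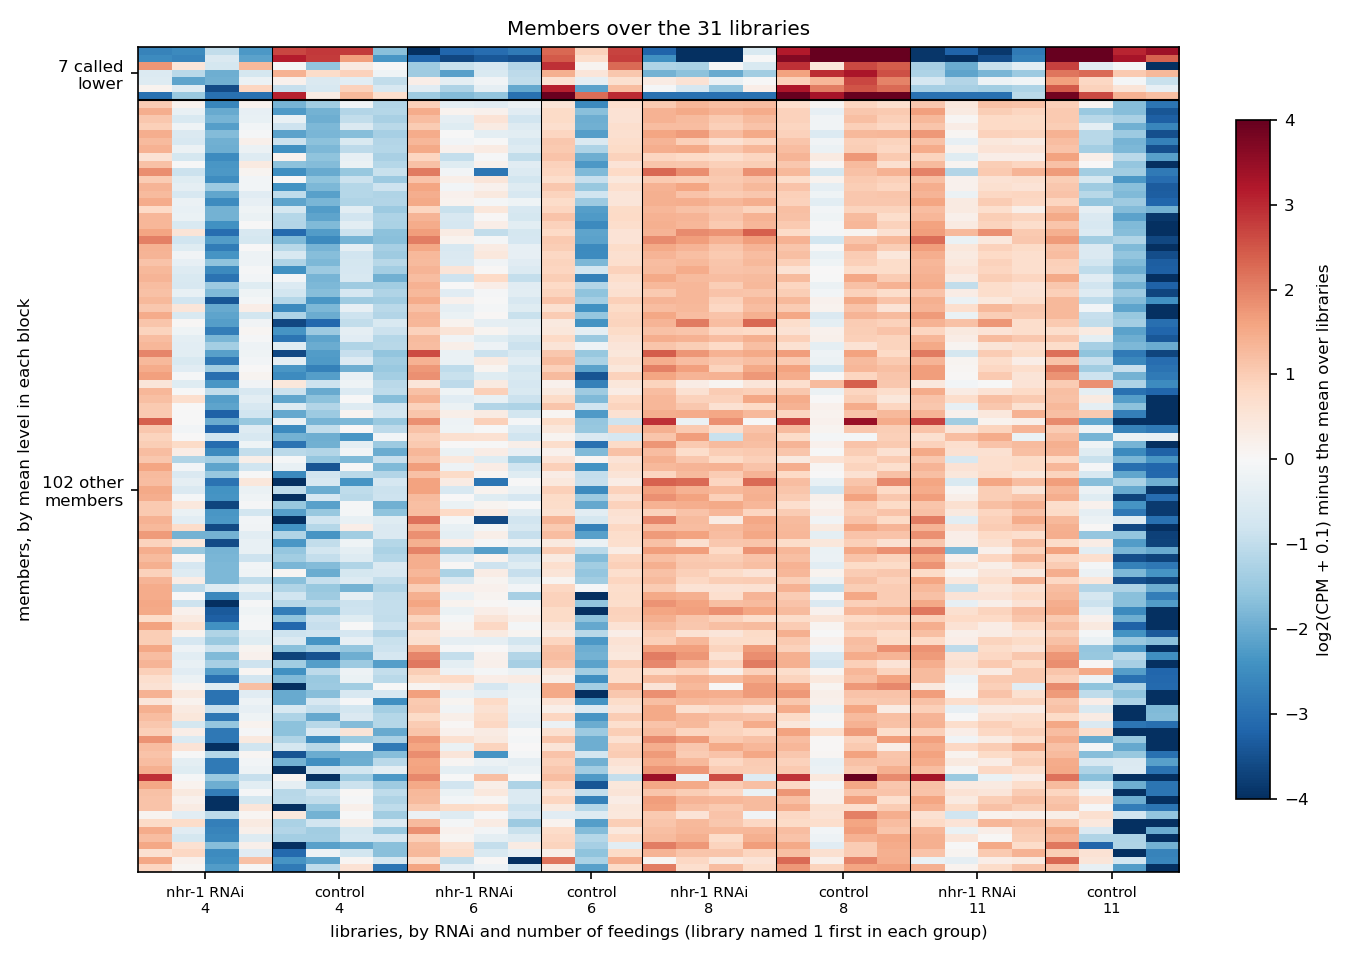
Each row is a member and each column 1 of the 31 libraries of the 8 groups, with nhr-1 RNAi left of the control at each number of feedings. Colour is log2(CPM + 0.1) minus the member's mean over the libraries, drawn between -4 and 4. The 7 upper rows are those called lower under nhr-1 RNAi at 6 or 11 feedings, and the 102 lower rows differ between libraries of the same group. Among the 7, SmedSXL_013769 is not low in nhr-1 RNAi at 4 feedings. SmedSXL_017486 has 1.20, 0.731, 0 and 2.08 CPM in nhr-1 RNAi libraries 1, s1, s2 and s3 there, which overlaps the control.

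The summed level of the 102 members was highest at 8 feedings under both RNAis. The choice put the control at 8 feedings above that at 4. The 102 also leave out members called lower, so this order carries no test. Under nhr-1 RNAi the sum was 1801 ± 1541 CPM at 4 feedings, 2139 ± 1414 CPM at 6, 4037 ± 370 CPM at 8 and 3047 ± 1046 CPM at 11 (SD, n = 4 each). In the control it was 721 ± 207 CPM at 4 feedings (n = 4), 2019 ± 1304 CPM at 6 (n = 3), 2973 ± 981 CPM at 8 (n = 4) and 1407 ± 1665 CPM at 11 (n = 4). The spread between libraries of a group was thus close to its mean in nhr-1 RNAi at 4 feedings and above its mean in the control at 11.

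Single libraries lay far from the rest of their group. At 4 feedings the sum was 3988 CPM in the nhr-1 RNAi library named 1 and 1364, 368 and 1486 CPM in those named s1, s2 and s3, against 694, 488, 991 and 711 CPM in the control libraries 1, s1, s2 and s3. At 6 feedings it was 4232, 1474, 1710 and 1142 CPM in nhr-1 RNAi libraries 1, s1, s2 and s3, against 2927, 525 and 2605 CPM in control libraries 1, s1 and s2. The groups overlapped at both. At 8 feedings it was 4383, 4169, 3515 and 4081 CPM in nhr-1 RNAi libraries 1, s1, s2 and s3, against 3440, 1529, 3691 and 3233 CPM in the control libraries of the same names. At 11 feedings it was 4426, 1885, 2990 and 2887 CPM in nhr-1 RNAi libraries 1, s2, s3 and s4, against 3836, 1116, 495 and 183 CPM in control libraries 1, s1, s2 and s3. The ranges of the RNAis overlapped here too. The 4 nhr-1 RNAi libraries at 8 feedings were the closest to one another of any group of 4 in the sense of SD over mean, and the control at 11 feedings the farthest apart.

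**Figure D2:**
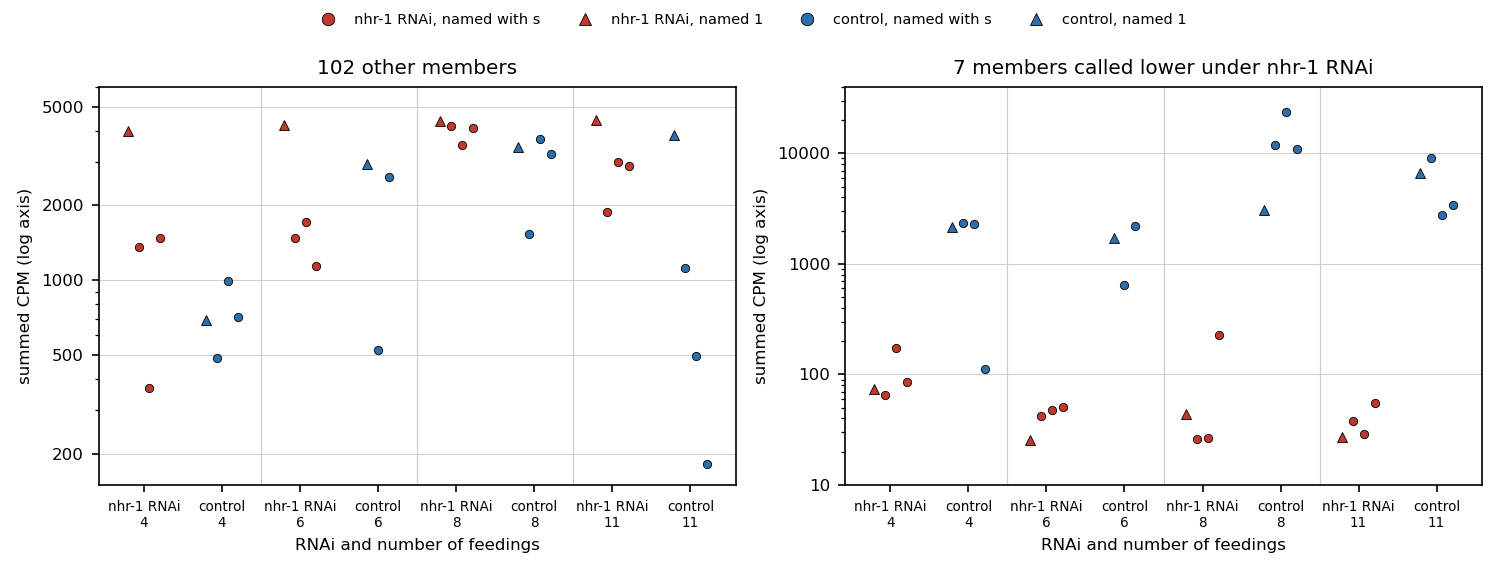
Summed CPM of members in each library on a log axis, by RNAi and number of feedings, for the 102 other members (left) and the 7 members called lower under nhr-1 RNAi (right). Triangles are libraries named 1 and circles those named with s. On the left the libraries named 1 lie between 2927 and 4426 CPM in 7 of 8 groups and at 694 CPM in the control at 4 feedings. On the right the nhr-1 RNAi libraries lie between 25.6 and 226 CPM and the control libraries between 113 and 23833 CPM.

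The library name moved with the level of these members. The library named 1 was the highest of its group for 102 of the 109 members in nhr-1 RNAi at 4 feedings, 102 at 6, 60 at 8 and 84 at 11. In the control it was the highest for 71 members at 6 feedings, 37 at 8 and 104 at 11, but for 24 at 4, where it was the lowest for 50. Summed over the 102 members, the libraries named 1 held 2927 to 4426 CPM in the 7 groups other than the control at 4 feedings, and 694 CPM in that group. That low control library is 1 of the 4 that set the lower side of the choice. Without it the criteria kept 435 contigs, 97 of the 109 among them, and without replicate s1 of the control at 8 feedings they kept 404, all 109 among them. What sets the libraries named 1 apart is not given in the sources used here, and the part of the library name in the results was not tested.

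The level of the 102 members also moved with the share of counts on SmedSXL_088910, a contig that is in neither the members nor the CPM scale. The 31 libraries were divided at their median share of 13.7%. In the 15 libraries under it, 8 of nhr-1 RNAi and 7 of the control, the sum of the 102 members was 2605 to 4426 CPM except for 694 CPM in the control library named 1 at 4 feedings. In the 16 libraries at or over it, 8 of each RNAi, the sum was 183 to 2887 CPM. The 3 libraries richest in this contig held 183 to 495 CPM. The shares were 10.1% to 12.2% in nhr-1 RNAi at 8 feedings and 8.91% to 36.9% in nhr-1 RNAi at 4 feedings, and 6.77% to 15.3% in the control at 8 feedings and 9.89% to 23.5% in the control at 4. The part of this contig in the differences between feedings was not tested.

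**Figure D3:**
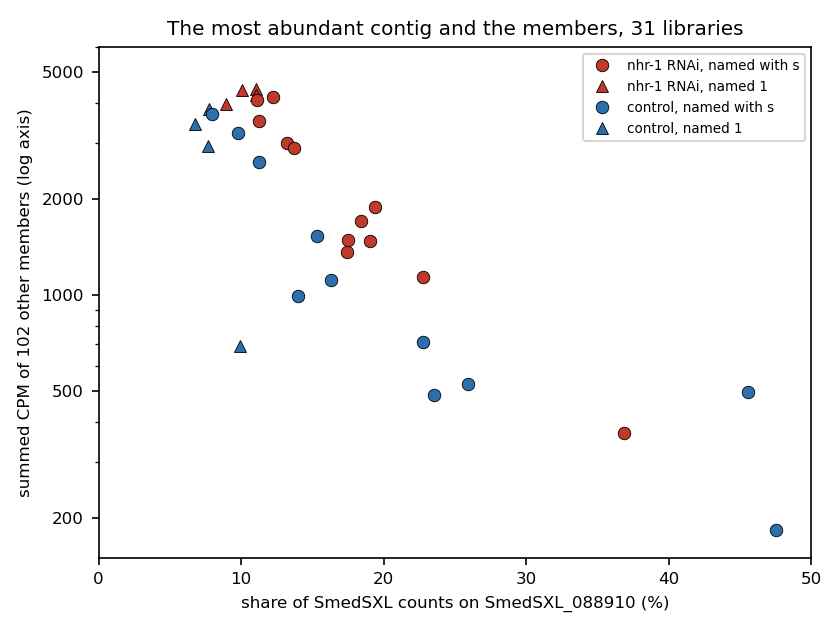
Share of SmedSXL counts on SmedSXL_088910 in percent (x) against the summed CPM of the 102 other members on a log axis (y), 1 point per library. Libraries of both RNAis with shares of 6.77% to 13.2% lie at 2605 CPM or above, except the control library named 1 at 4 feedings at 694 CPM, and the 3 with the highest shares lie at 495 CPM or below.

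Whether the control rise also occurred under nhr-1 RNAi was tested first over the same span, 8 against 4 feedings, in libraries that the choice did not use. Most members were higher at 8 feedings, but a single one passed the test. The log2 fold change was positive for 102 of 109 members, with a median of 1.08 against 0.07 over all 45762 sequences tested, and it was over 1 for 64 members. With only the groups compared the filter kept 106 members, 103 of them positive, with a median of 1.09. The remaining members passed the filter only in the fit over all groups. By edgeR's quasi-likelihood test with Benjamini-Hochberg adjustment over all sequences, 1 member was called higher (0.402% of all sequences were called higher) and 0 were called lower (8.73% of all sequences). At an unadjusted p under 0.05, 34 members were higher and 2 lower, which is 33.0% of the members against 26.1% of all sequences in either direction. That share of all sequences was not split by direction, and most sequences called by edgeR were lower, whereas most of these members were higher. SmedSXL_013769 was called lower by limma voom, without the filter, with only the groups compared and without the 3 libraries rich in SmedSXL_088910, with adjusted p of 0.00589 to 0.0453. DESeq2 called 2 members higher (2.05% of all sequences). Limma voom, here with a quality weight per library, called 88 (21.7%). On the CPM scale every library at 8 feedings lay above every library at 4 for 17 members (15.6%), against 7.4% of the 23870 SmedSXL contigs tested.

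The member called higher was SmedSXL_017442, of 2469 bases. It had 8.02, 8.82, 7.98 and 9.62 CPM in nhr-1 RNAi libraries 1, s1, s2 and s3 at 8 feedings, against 5.22, 2.74, 0.323 and 1.87 CPM at 4 feedings. The groups did not overlap, and the libraries at 8 feedings were close together. The difference was 1.65 ± 0.53 on the log2 scale (SE, n = 4 each, adjusted p = 0.0453 by edgeR). The call was lost without any single library of these groups but replicate 1 at 4 feedings, and the adjusted p then ran up to 0.156.

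The form of the choice itself was met by few members in the knock-down. With the nhr-1 RNAi libraries at 8 and 4 feedings in place of the controls, 23 SmedSXL contigs met it and 2 of them were members, 1.83% of the members and 8.70% of the 23. The ratio of means was over 1 for 103 members and at least 3 for 3 members, with a median of 2.16, against 1.08 over the SmedSXL contigs tested.

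The size of this rise turned on the nhr-1 RNAi library named 1 at 4 feedings. Between the libraries named 1 the median ratio of 8 to 4 feedings was 1.08, with 79 of 109 members above 1. Between the means of the 3 libraries named with s it was 3.43, with 104 members above 1 and 68 at 3 or more. Over the SmedSXL contigs tested the medians were 1.01 (51.3% above 1) and 1.12 (54.9% above 1) in the same order. Without replicate 1 at 4 feedings 42 members were called higher (6.36% of all sequences were), and among the libraries named with s alone 53 were (4.69%). The replicate block gave 23 (2.63%). Each of the other 7 libraries, when left out, left 0 members called. Without the 3 libraries rich in SmedSXL_088910, which include replicate s2 at 4 feedings, 0 members were called and the median log2 fold change was 0.77.

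The most abundant of the 102 members show the same picture. SmedSXL_083446, of 1508 bases, had 262, 315, 290 and 301 CPM in nhr-1 RNAi libraries 1, s1, s2 and s3 at 8 feedings, against 257, 140, 20.6 and 141 CPM at 4 feedings. The groups did not overlap, but the library named 1 differed by little between the feedings. On the log2 scale it differed by 1.09 ± 0.55 (SE, adjusted p = 0.202 by edgeR). SmedSXL_016845, of 380 bases, had 279, 307, 274 and 300 CPM in libraries 1, s1, s2 and s3 at 8 feedings, against 291, 86.5, 26.5 and 84.5 CPM at 4. Here the library named 1 at 4 feedings lay among those at 8, and the log2 fold change was 1.26 ± 0.59 (adjusted p = 0.178, edgeR). SmedSXL_012831, of 5553 bases, and SmedSXL_017158, of 11188 bases, likewise had a library at 4 feedings, the one named 1, above the lowest at 8. SmedSXL_012831 had 176 to 247 CPM at 8 feedings and 22.6 to 206 CPM at 4, and SmedSXL_017158 had 164 to 206 CPM at 8 feedings and 21.6 to 166 CPM at 4. Per length, the highest level of the 4 in nhr-1 RNAi at 8 feedings was 763 CPM per kilobase for SmedSXL_016845, and the lowest was 16.8 CPM per kilobase for SmedSXL_017158.

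After 6 feedings under nhr-1 RNAi no member passed the test against 4 feedings in the fit over all groups. The log2 fold change was positive for 91 members with a median of 0.24, against 0.04 over all sequences. With only the groups compared the filter kept 104 members, 91 of them positive. By edgeR 0 members were called higher (0.0197% of all sequences) and 0 lower (4.38%). At an unadjusted p under 0.05 none was higher and 1 was lower (11.6% of all sequences in either direction). Limma voom (697 of 45762 sequences called higher) and DESeq2 (29 of 45708) also called 0 members higher. SmedSXL_013769 was called lower without the filter, with only the groups compared and without the 3 libraries rich in SmedSXL_088910, with adjusted p of 0.0427, 0.0408 and 0.0385 by edgeR. For 2 members, SmedSXL_012802 and SmedSXL_010192, every library at 6 feedings lay below every library at 4 (8.33% of SmedSXL contigs), and for 0 members every library lay above (0.452%). The median turned to -0.24 without replicate 1 at 6 feedings, to -0.05 without replicate s2 at 4 feedings and to -0.08 without the 3 libraries rich in SmedSXL_088910. Without replicate 1 at 4 feedings it was 0.87.

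After 11 feedings under nhr-1 RNAi 101 members were above their level at 4 feedings. None passed the test in the edgeR fit of all 31 libraries with the filter and without the replicate block. The median log2 fold change was 0.75, against 0.06 over all sequences. With only the groups compared the filter kept 105 members, 100 of them positive. By edgeR 0 members were called higher (0.365% of all sequences) and 0 lower (9.1%), and 1 was higher and 2 were lower at an unadjusted p under 0.05 (21.3% of all sequences in either direction). With the replicate name as a block, which pairs these groups, 1 member was called lower (10.2% of all sequences) and 0 higher. It was SmedSXL_013769, at -2.61 ± 0.72 on the log2 scale (SE, adjusted p = 0.0168 by edgeR), against -2.06 ± 0.72 (adjusted p = 0.0725, edgeR) without the block. DESeq2, limma voom and 3 other settings called it too, with adjusted p up to 0.0477. The counts called higher were 58 by limma voom (14.1% of all sequences) and 0 by DESeq2 (656 of 45708 sequences). Every library at 11 feedings lay above every library at 4 for 2 members (3.64% of SmedSXL contigs) and below for 2 (13%), again SmedSXL_012802 and SmedSXL_010192. The median ratio of means was 1.67, with 1.08 between the libraries named 1 and 2.30 among those named with s. Without replicate 1 at 4 feedings 4 members were called higher (2.57% of all sequences), and the median log2 fold change was 1.34. Among the libraries named with s alone 3 members were called (1.2%). The comparisons of 6, 8 and 11 feedings share the libraries at 4 feedings.

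Control libraries that the choice did not use, at 11 and 6 feedings, gave no member past the test. The log2 fold change of 11 over 6 feedings was positive for 30 members and had a median of -0.19, against -0.01 over all sequences. By edgeR 0 members were called in either direction (0% of all sequences), and 3 were higher and 0 lower at an unadjusted p under 0.05. Of all sequences 13.5% had such a p in either direction. These 3 belong to the 7 members lower under nhr-1 RNAi, and their log2 ratios were 2.25 ± 0.87 for SmedSXL_012802, 2.27 ± 0.90 for SmedSXL_010192 and 1.10 ± 0.36 for SmedSXL_002873 (SE, adjusted p of 0.254, 0.264 and 0.220 by edgeR). By limma voom 1 member was higher (1.41% of all sequences) and 5 were lower (0.514%), and DESeq2 called 0 higher (1665 of 45708 sequences). Every library at 11 feedings lay above every library at 6 for 1 member (0.7% of SmedSXL contigs), SmedSXL_012802, and below for 0 (5.58%). The median ratio of CPM means was 0.735 over the members and 0.779 over the SmedSXL contigs tested. The 2 names went opposite ways, with a median ratio of 1.34 between the libraries named 1, above 1 for 101 members, and of 0.390 among those named with s, above 1 for 6. Over the SmedSXL contigs tested the median was 1.00 between the libraries named 1, with 50.3% above 1. Among those named with s it was 0.665, with 23.0% above 1, so these contigs were lower there too. Without replicate 1 at 11 feedings 4 members were called lower (2.16% of all sequences), and the median log2 fold change was -1.19. Without the 3 libraries rich in SmedSXL_088910 it was 0.38.

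The 102 members shared much of their order of groups. The highest of the 8 group means was that of nhr-1 RNAi at 8 feedings for 83 members, that of nhr-1 RNAi at 11 feedings for 3 and that of the control at 8 feedings for 16. The lowest was that of the control at 4 feedings for 101 members. Since the control groups at 4 and 8 feedings entered the choice, these orders carry no test. The median member averaged 6.39, 7.76, 13.96 and 10.9 CPM in nhr-1 RNAi at 4, 6, 8 and 11 feedings, against 2.50, 6.80, 10.5 and 5.18 CPM in the control. At 4 feedings the nhr-1 RNAi mean was above the control mean for 101 of the 102, and at 8 feedings for 85. Of the SmedSXL contigs tested 55.3% were above at 4 feedings and 60.9% at 8. The choice used both of these control groups, and the 102 leave out members called lower, so these counts carry no test either. By name, the median ratio of nhr-1 RNAi to control at 4 feedings over all 109 was 6.54 between the libraries named 1 and 1.42 among those named with s. Over the SmedSXL contigs tested these medians were 1.03 and 1.00.

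In the comparison of nhr-1 RNAi with the control at 6 feedings, 6 members were lower under nhr-1 RNAi and the others did not pass the test. Of all sequences 9.54% were called lower by edgeR, a larger share than 6 of 109, and 0.59% higher, and 0 members were called higher. At an unadjusted p under 0.05, 7 members were lower and 0 higher, 6.42% of the members against 18.2% of all sequences in either direction. The median log2 fold change of the members was 0.20, against 0.18 over all sequences. It turned to -0.29 without replicate 1 of nhr-1 RNAi, to -0.24 without replicate s1 of the control and to -0.42 by limma voom. For 5 members (4.59%) every nhr-1 RNAi library lay below every control library, against 17.3% of SmedSXL contigs, and for 0 members above (3.03%).

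At 11 feedings 7 members were lower under nhr-1 RNAi and 1 was higher. Of all sequences 21.8% were called lower by edgeR and 7.1% higher, and 7 of 109 is a smaller share than the first of these. At an unadjusted p under 0.05, 7 members were lower and 13 higher, 18.3% of the members against 42.2% of all sequences in either direction. The median log2 fold change of the members was 0.92, against 0.14 over all sequences. For 5 members (4.59%) every nhr-1 RNAi library lay below every control library (12.4% of SmedSXL contigs), and for 0 members above (9.67%). In a fit with the replicate name as a block the counts were 7 lower and 5 higher (8.1% of all sequences called higher), and limma voom called 34 higher (9.8%).

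**Figure D4:**
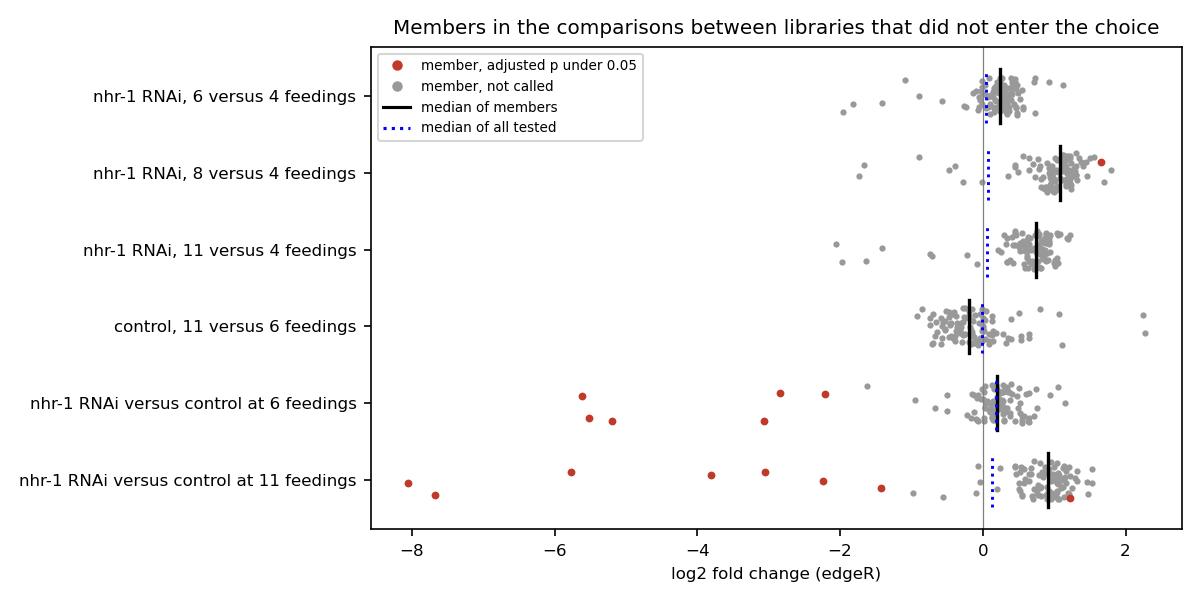
Log2 fold changes from edgeR (x) of the 109 members in 6 comparisons of libraries outside the choice (y), 1 point per member, red where the adjusted p is under 0.05. Black lines are the medians of the members and dotted blue lines those of all 45762 sequences. Most members sit between 0 and 2 at 8 against 4 feedings of nhr-1 RNAi, with a median of 1.08, and the 7 members called lower at 11 feedings sit at -1.42 or below.

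SmedSXL_012802, of 2027 bases, was by far the most abundant member and stayed low under nhr-1 RNAi. It had 17.6, 35.9, 38.9 and 44.9 CPM in nhr-1 RNAi libraries 1, s1, s2 and s3 at 6 feedings, against 1577, 615 and 2098 CPM in control libraries 1, s1 and s2. At 11 feedings it had 21.7, 34.5, 22.2 and 45.6 CPM in nhr-1 RNAi libraries 1, s2, s3 and s4, against 6312, 8900, 2671 and 3371 CPM in control libraries 1, s1, s2 and s3. The groups were far apart at both. By edgeR nhr-1 RNAi over control was -5.19 ± 0.92 on the log2 scale at 6 feedings (SE, edgeR adjusted p = 0.000242) and -7.67 ± 1.00 at 11 (edgeR adjusted p = 1.59e-06).

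At the feedings of the choice the same contig had 50.2, 54.7, 164 and 65.5 CPM in nhr-1 RNAi libraries 1, s1, s2 and s3 at 4 feedings, against 2066, 2261, 2234 and 101 CPM in the control libraries of those names. At 8 feedings it had 34.6, 18.3, 18.4 and 209 CPM in nhr-1 RNAi, against 2868, 11551, 22686 and 10396 CPM in the control. At 4 feedings control replicate s3 lay inside the range of nhr-1 RNAi, and at 8 feedings the groups were separate. Per length, SmedSXL_012802 averaged 34.5 CPM per kilobase in nhr-1 RNAi at 8 feedings, against 5859 CPM per kilobase in the control. Within nhr-1 RNAi its log2 ratio of 8 to 4 feedings was -0.47 ± 0.76 (SE, adjusted p = 0.644 by edgeR) and that of 11 to 4 feedings was -1.64 ± 0.78 (adjusted p = 0.220 by edgeR), so neither was positive.

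SmedSXL_010192, of 1028 bases, followed the same libraries. It had 0.968, 0.677, 0.824 and 0.748 CPM in nhr-1 RNAi libraries 1, s1, s2 and s3 at 6 feedings, against 53.0, 15.9 and 65.9 CPM in control libraries 1, s1 and s2. At 11 feedings it had 0.558, 0.191, 0.722 and 1.37 CPM in nhr-1 RNAi, against 325, 254, 95.7 and 49.2 CPM in control libraries 1, s1, s2 and s3. No library of either RNAi reached the range of the other at these feedings. This came to a log2 ratio of -5.62 ± 1.06 at 6 feedings (SE, edgeR adjusted p = 0.000468) and -8.06 ± 1.12 at 11 (edgeR adjusted p = 3.71e-06). In the control at 4 feedings replicate s3 was again the low one, with 1.82 CPM against 30.2 to 85.6 CPM in the other 3. In the 16 libraries with at least 30 counts on it, the count of SmedSXL_012802 was 19.4 to 73.9 times that of SmedSXL_010192, with a median of 29.0.

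SmedSXL_012943, of 1785 bases, was almost without counts under nhr-1 RNAi. Summed over the libraries of a group it had 1, 3, 0 and 2 counts in nhr-1 RNAi at 4, 6, 8 and 11 feedings, against 59, 148, 337 and 118 counts in the control. It had 0 to 0.194 CPM in nhr-1 RNAi libraries at 6 feedings, against 12.0, 3.62 and 6.16 CPM in control libraries 1, s1 and s2. At 11 feedings 3 nhr-1 RNAi libraries were at 0 and replicate s4 at 0.275 CPM, against 11.3, 4.83, 1.94 and 1.69 CPM in control libraries 1, s1, s2 and s3. Scaled by library size, the control count was 59.8 times that of nhr-1 RNAi at 6 feedings (95% counting interval 20.1 to 293) and 71.1 times at 11 (19.3 to 594). Against a limit of 3 counts over the group it was at least 110-fold lower in nhr-1 RNAi at 8 feedings, a value given without a test. The intervals and the limit cover counting error only. By edgeR the adjusted p was 4.08e-05 at 6 feedings and 8.34e-06 at 11.

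**Figure D5:**
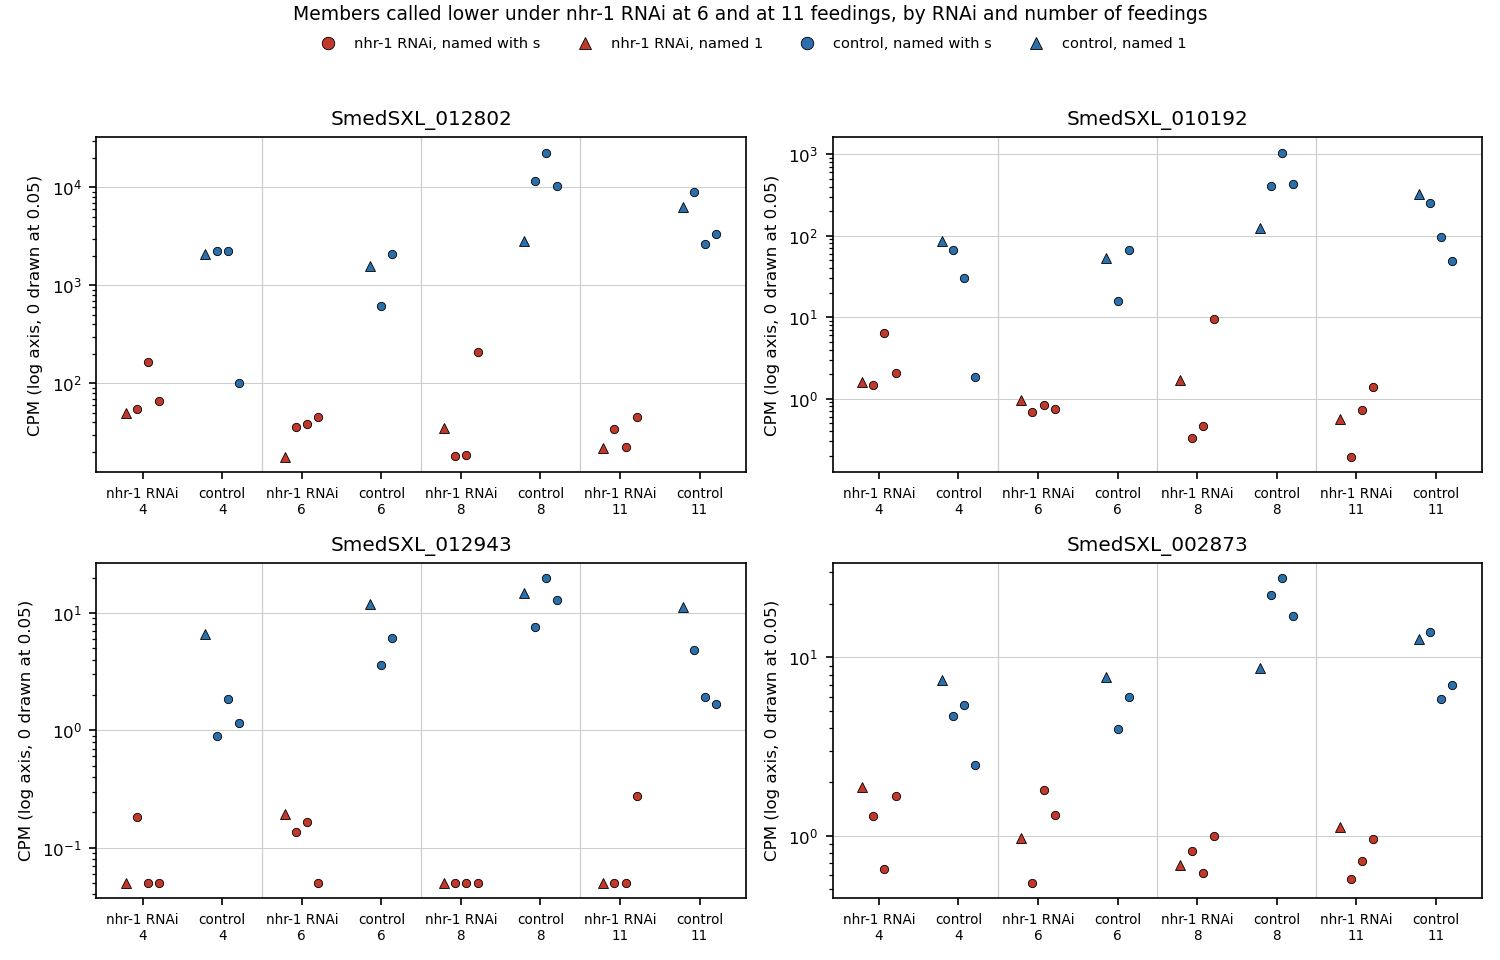
CPM by library on log axes, by RNAi and number of feedings, for SmedSXL_012802, SmedSXL_010192, SmedSXL_012943 and SmedSXL_002873, with values of 0 drawn at 0.05. Triangles are libraries named 1 and circles those named with s. At 6, 8 and 11 feedings every nhr-1 RNAi library lies below every control library in each panel, and control replicate s3 at 4 feedings is low in both upper panels.

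Another 4 contigs complete the 7, named here after their values were seen. SmedSXL_002873, of 1000 bases, had 0.968, 0.541, 1.81 and 1.31 CPM in nhr-1 RNAi libraries 1, s1, s2 and s3 at 6 feedings, against 7.72, 3.97 and 6.01 CPM in control libraries 1, s1 and s2. At 11 feedings it had 1.12, 0.573, 0.722 and 0.962 CPM in nhr-1 RNAi libraries 1, s2, s3 and s4, against 12.7, 13.8, 5.82 and 7.03 CPM in control libraries 1, s1, s2 and s3. The groups were apart at both, and the log2 fold change was -2.21 ± 0.39 at 6 feedings (SE, edgeR adjusted p = 0.000258) and -3.80 ± 0.39 at 11 (edgeR adjusted p = 1.07e-07). This contig had the smallest standard errors of the 7. Together with SmedSXL_012802 it is 1 of the 2 among the 7 with a match in the asexual assembly, against 20 of the 102.

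SmedSXL_013769, of 2405 bases, averaged less in nhr-1 RNAi than in the control at 6, 8 and 11 feedings and more at 4. It averaged 9.58 ± 6.00 CPM in nhr-1 RNAi at 4 feedings, 2.33 ± 0.54 at 6, 2.94 ± 1.24 at 8 and 2.28 ± 1.03 at 11 (SD, n = 4 each), against 4.30 ± 1.96, 21.9 ± 15.9, 25.1 ± 13.2 and 10.1 ± 14.99 CPM in the control (SD, n = 4, 3, 4 and 4). At 11 feedings the control libraries had 32.4, 3.496, 4.52 and 0 CPM, so they spanned the whole range of nhr-1 RNAi, which was 1.14 to 3.57 CPM. Relative to the control, nhr-1 RNAi stood at a log2 ratio of -3.06 ± 0.74 at 6 feedings (SE, edgeR adjusted p = 0.00553) and -2.24 ± 0.72 at 11 (edgeR adjusted p = 0.0211). Both calls were lost without the control library named 1, with -2.47 (adjusted p = 0.0518, edgeR) at 6 feedings and -0.68 (adjusted p = 0.429, edgeR) at 11. The call at 11 feedings was also lost without replicate 1 of nhr-1 RNAi, at -2.14, and without its replicate s2, at -2.09, and in 4 of 9 other settings, with adjusted p up to 0.521.

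SmedSXL_017486 and SmedSXL_012257 were the least abundant of the 7 in the control at 8 feedings. SmedSXL_017486, of 2010 bases, had 0.774, 0.406, 0.824 and 0.187 CPM in nhr-1 RNAi libraries 1, s1, s2 and s3 at 6 feedings, against 10.1, 0.172 and 2.72 CPM in control libraries 1, s1 and s2, so the groups overlapped through control replicate s1. At 11 feedings it had 0.361 to 0.412 CPM in nhr-1 RNAi, against 6.48, 2.16, 1.62 and 0.844 CPM in control libraries 1, s1, s2 and s3, with no overlap. Log2 fold changes were -2.84 ± 0.73 at 6 feedings (SE, edgeR adjusted p = 0.00918) and -3.05 ± 0.77 at 11 (edgeR adjusted p = 0.00412). Without the control library named 1 the value at 6 feedings was -1.30 (adjusted p = 0.476, edgeR).

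SmedSXL_012257, of 3294 bases, was called at 11 feedings alone. It had 1.67, 1.14, 2.34 and 2.47 CPM in nhr-1 RNAi libraries 1, s2, s3 and s4, against 8.69, 4.83, 2.59 and 1.41 CPM in control libraries 1, s1, s2 and s3, and the groups overlapped. Over the control its log2 ratio was -1.42 ± 0.41 at 11 feedings (SE, edgeR adjusted p = 0.0112) and -0.50 ± 0.43 at 6 feedings (edgeR adjusted p = 0.652). The call at 11 feedings was lost with library size alone, with only the groups compared and among the libraries named with s, with adjusted p up to 0.0824 by edgeR. Whether its difference at 11 feedings departed from that at 6 was tested directly and did not pass, with a difference of -0.92 ± 0.60 (SE, edgeR adjusted p = 0.565). Of the 7 it alone had a positive log2 fold change of 8 over 4 feedings in nhr-1 RNAi, 1.11 ± 0.43 (SE, edgeR adjusted p = 0.117).

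The member called higher under nhr-1 RNAi at 11 feedings was SmedSXL_002190, of 274 bases, also named after its values were seen. It had 36.2, 13.5, 18.2 and 20.2 CPM in nhr-1 RNAi libraries 1, s2, s3 and s4, against 20.9, 4.99, 3.56 and 3.09 CPM in control libraries 1, s1, s2 and s3. The groups overlapped through the control library named 1. It differed by 1.22 ± 0.45 on the log2 scale (SE, adjusted p = 0.0410 by edgeR). The call was lost without replicates 1, s3 or s4 of nhr-1 RNAi, at 0.90, 1.30 and 1.27, and without replicates s1, s2 or s3 of the control, at 1.01, 1.04 and 1.00.

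The higher side at 11 feedings depended on which control libraries were counted. Between the libraries named 1 the median ratio of nhr-1 RNAi to control was 1.12, with 69 of 109 members above 1. Among those named with s it was 4.33, with 101 members above 1 and 90 at 3 or more. Without the control library named 1, 74 members were called higher (19% of all sequences) and the median log2 fold change was 1.84, and among the libraries named with s alone 55 were called (12.9%). Without the 3 libraries rich in SmedSXL_088910, 2 of them controls at 11 feedings, 0 members were called higher (0.708% of all sequences) and the median was 0.16. Single-library omission of replicates 1, s3 or s4 of nhr-1 RNAi, or of s1, s2 or s3 of the control, left 0 called.

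At 6 feedings the names also differed. The median ratio of nhr-1 RNAi to control was 1.46 between the libraries named 1, above 1 for 96 members, and 0.903 among those named with s, above 1 for 38. Over the SmedSXL contigs tested the medians were 1.13 (60.7% above 1) and 0.955 (44.1% above 1) in the same order.

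A direct test asked whether the change over 6 to 11 feedings differed between the RNAis. By edgeR 0 members were called in either direction (0% of all sequences), and at an unadjusted p under 0.05 none was higher and 2 were lower (12.8% of all sequences in either direction). The lowest adjusted p was 0.296, for SmedSXL_002873, whose change was lower under nhr-1 RNAi by a log2 difference of -1.59 ± 0.57 (SE). For SmedSXL_012802 the difference was -2.48 ± 1.14 (SE, edgeR adjusted p = 0.356). Over the members the median difference was 0.71 with 97 positive, against 0.02 over all sequences, and without the control library named 1 at 11 feedings it was 1.63. By limma voom 4 members were called higher (0.131% of all sequences), and the median difference was 1.48.

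The libraries of 1 group lay far apart for the members with the highest control ratios. SmedSXL_087498, of 921 bases, had 31.6, 2.45, 17.8 and 1.99 CPM in nhr-1 RNAi libraries 1, s1, s2 and s3 at 8 feedings, against 21.8, 3.89, 47.0 and 10.9 CPM in the control libraries of those names. SmedSXL_087497, of 2588 bases, had 51.0, 5.72, 23.8 and 6.63 CPM in those nhr-1 RNAi libraries, against 42.8, 7.52, 73.7 and 19.1 CPM in the control. Both were high in the same libraries, 1 and s2 of each RNAi. Their log2 fold changes of 8 over 4 feedings in nhr-1 RNAi were 0.90 ± 1.07 and 0.88 ± 0.95 (SE, edgeR adjusted p = 0.535 and 0.493). SmedSXL_016558, of 7335 bases and at the low end of the control ratios, had 6.96 to 10.7 CPM in nhr-1 RNAi at 8 feedings and 1.29 to 8.97 CPM at 4, which gives 0.90 ± 0.52 on the log2 scale (SE, adjusted p = 0.244 by edgeR).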

How the data were processed

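The authors deposited 1 table of raw read counts per reference sequence, with sequence lengths, for 32 libraries; its counts were used as deposited. Bowtie2 is named in the submitters' processing notes, without version or role. For the counting program, strand handling and the meaning of the prefixes the sources say nothing; SmedSXL and SmedASXL are read as a sexual and an asexual assembly. A row naming no sequence held 0 counts. All columns matched a library title.

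Tests used the quasi-likelihood test of edgeR 4.0.16 (R 4.3.3) with TMM factors (0.353 to 1.40) on 31 libraries in 8 groups, with 1 mean per group and no covariate. filterByExpr (minimum count 10, minimum total 15) kept 45762 sequences, among them 23870 SmedSXL contigs and all 109 members, holding 99.2% of counts. It was applied over all 8 groups, so a member could pass through groups outside a comparison, the control at 8 feedings among them. With only the groups compared it kept 104 to 108 members for each pair of groups. Prior degrees of freedom were 4.65. Benjamini-Hochberg adjustment covered the whole tested table, with calls under 0.05. Standard errors divide a log2 fold change by the root of its F statistic. Alternatives used limma voom (limma 3.58.1), DESeq2 1.42.0, other scalings, filters, subsets and omitted libraries. The limma voom fit included a quality weight per library, which gives libraries far from the others less weight. The part of these weights in its counts was not tested. The script was tested on simulated data.

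Nothing states that replicates came from separate animals or cultures, so p-values measure the spread between these libraries. Contigs were named by rule: the 6 most abundant members, up to 2 called members per direction and comparison without overlap, and the 2 at either end of the ratio and beside its threshold. Members and rules were chosen with earlier results of these data known. Whether names pair libraries was judged from correlations of same-named deviations from group means. All were over 0.1 for nhr-1 RNAi at 11 against 4 feedings (0.138 to 0.468) and for nhr-1 RNAi against control at 6 (0.225 to 0.576) and at 11 feedings (0.173 to 0.427), and not elsewhere. In the block fit, replicate s4 of nhr-1 RNAi at 11 feedings, alone in its name, adds nothing.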

Additional observations from a re-analysis of the deposited data

Results flagged for a closer look

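Of 112 groups of 4 libraries examined for the named members, 24 held 1 library far from the other 3 (a gap to the nearest that exceeds Dixon's critical share of the range). Among independent groups of normally spread values, chance alone flags about 1 in 20. The members share the same libraries, so the 24 cannot be read against that rate. The library named 1 was the high one in most. It was high for SmedSXL_012831 in nhr-1 RNAi at 6 feedings (210.2 CPM, next 74.4) and in the control at 11 (195.9 CPM, next 34.6). It was high for SmedSXL_083446 in nhr-1 RNAi at 6 feedings (247.8 CPM, next 108.3), and for SmedSXL_016845, SmedSXL_013769 and SmedSXL_002190 in the control at 11 (219.1, 32.4 and 20.91 CPM). SmedSXL_087497 stood out in library 1 of nhr-1 RNAi at 4 (35.48 CPM) and 11 feedings (45.16 CPM) and of the control at 4 (5.705 CPM) and 11 (25.04 CPM). SmedSXL_087498 did so in library 1 of nhr-1 RNAi at 4 (22.22 CPM) and 11 feedings (29.55 CPM) and of the control at 11 (13.4 CPM), and SmedSXL_012943 in library 1 of the control at 4 (6.596 CPM).

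Libraries named with s stood out for the following members. SmedSXL_012802 and SmedSXL_010192 were high together in replicate s2 of nhr-1 RNAi at 4 feedings (163.9 and 6.452 CPM) and in replicate s3 of nhr-1 RNAi at 8 (208.7 and 9.451 CPM). In replicate s3 of the control at 4 feedings SmedSXL_012802 was low at 100.6 CPM, against 2066 to 2261 CPM in the other 3. SmedSXL_016845 was low in replicate s1 of the control at 8 feedings (84.0 CPM), and SmedSXL_083446 in replicate s2 of nhr-1 RNAi at 11 (171.0 CPM). SmedSXL_017486 was high in replicate s2 of the control at 4 feedings (2.183 CPM). SmedSXL_012943 had counts in a single nhr-1 RNAi library at 4 feedings (s1, 0.1829 CPM) and at 11 (s4, 0.2749 CPM). The cause was not tested for any of them.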

How the results depend on the processing

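The number of members under other settings was 296 at a ratio of 2, 53 at 4, 244 and 58 with a minimum of 2 and 10 CPM, 72 with 1 CPM added, 43 with TMM-scaled CPM and 401 (82 of the 109 among them) without both control libraries named 1; leaving out single control libraries gave 91 to 435, with 277 without replicate s2 at 4 feedings (105 of the 109 among them). Members higher in nhr-1 RNAi at 8 against 4 feedings numbered 1, but 23 with the replicate block (2.63% of all sequences), 88 by limma voom (21.7% of all sequences), 2 by DESeq2 (2.05%), 53 among libraries named with s, 0 with library size alone or without the 3 libraries rich in SmedSXL_088910, and 0 to 42 with single libraries left out. By the check of deviations the names do not pair the groups at 8 and 4 feedings. At 11 against 4 feedings 0 became 58 by limma voom, 3 among libraries named with s (1.2%) and 0 to 4 with single libraries left out. In the control at 11 against 6 feedings 0 higher became 1 by limma voom. Members higher than the control at 11 feedings numbered 1, but 5 with the replicate block (8.1%) and 5 by DESeq2 (4209 of 45708 sequences). They numbered 34 by limma voom (9.8%), 4 without filter (1002 of 172262) and 55 among libraries named with s (12.9%). They numbered 0 with library size alone, with only the groups compared or without the 3 libraries, and 0 to 74 with single libraries left out. Members lower at 11 feedings numbered 7, with 6 to 7 on leaving out libraries and 3 with only the groups compared, where SmedSXL_012943 and SmedSXL_017486 failed the filter and SmedSXL_012257 (adjusted p = 0.0598, edgeR) and SmedSXL_013769 (0.151) lost their calls. At 11 feedings 5 were lower with library size alone and 5 among libraries named with s. Lower at 6 feedings were 4 to 9 in every setting. Members lower at 11 against 4 feedings numbered 0, but 1 (SmedSXL_013769) with the replicate block (10.2% of all sequences). The number was also 1 by limma voom (7253 of 45762 sequences) and by DESeq2 (4356 of 45708). It was 1 as well without filter (3989 of 172262), with only the groups compared (2921 of 36972) and without the 3 libraries (4502 of 47468). The replicate block also changed the counts called higher at 8 against 4 feedings and over the control at 11. It changed no other count of calls among the 7 comparisons. Library size alone moved the median log2 fold change of all sequences at 11 feedings to 0.39, against 0.14 with TMM, and that of the control at 11 against 6 feedings to -0.33, against -0.01. Where no cause is given, the cause was not tested. Calls of SmedSXL_012802, SmedSXL_010192, SmedSXL_012943 and SmedSXL_002873 held in every setting that gave a value, with adjusted p up to 0.0121. No named member reversed. The median of the members at 11 feedings ran between 0.16 and 1.84. At the lowest levels, under 1 CPM, a library holds few counts.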

Other observations

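The control library labelled 7 feedings entered no comparison. Its 102 other members summed to 356 CPM, with 21.5% of its SmedSXL counts on SmedSXL_088910, and the 7 members called lower under nhr-1 RNAi summed to 1110 CPM, of which SmedSXL_012802 made 1068 CPM. For 86 of the 102 it lay under the mean of the control at 4 feedings.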
